A study of Equus caballus with 3 samples.

Results

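The expression of 10 genes of the WNT pathway was examined in equine mesenchymal stromal cells (MSCs) of 3 tissue sources, namely fat (adipose tissue, AT), marrow (bone marrow, BM) and blood (peripheral blood, PB). The genes were taken by name from the deposited gene-by-cell matrices, in which all 10 were found among the 29850 genes present in all 3 matrices. They encode the frizzled receptors *FZD1*, *FZD2* and *FZD7*, the co-receptor *ROR2*, the ligand *WNT5A*, the secreted antagonists *SFRP1*, *SFRP2*, *DKK1* and *DKK3*, and *AXIN2*, a feedback inhibitor. The MSCs came from 1 healthy Warmblood mare, 10 years old, and had been passaged 2 times in culture. All 3 sources were therefore donor-matched, untreated cultured cells, with 1 single-cell RNA sequencing (scRNA-seq) library per source. The titles of the deposited samples gave the sources, while another label field listed blood mononuclear cells for each of the 3 samples.

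WNT proteins are secreted, lipid-modified ligands that bind frizzled receptors at the surface of nearby cells. In the canonical branch, frizzled and LRP co-receptors stabilize beta-catenin, which enters the nucleus and activates target genes with TCF and LEF factors. In the non-canonical branches, ligands such as WNT5A act through ROR and frizzled receptors on cell polarity and movement. Secreted frizzled-related proteins (SFRPs) bind WNT ligands outside the cell, whereas DKK1 binds the LRP co-receptors. In stromal cells, the pathway is known for its part in the choice between bone and fat cell fates.

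Cells with 2500 to 15000 unique molecular identifiers (UMIs) and at most 3% of UMIs from chromosome MT were kept, which left 5403 AT cells, 5580 BM cells and 5318 PB cells. A kept cell held 7291, 6874.5 and 7750 UMIs at the median in these sources, and 39980656 to 41622445 UMIs were summed per source. A level is given as CPM, the UMIs of a gene scaled to 1000000 kept UMIs, with an exact 95% Poisson interval, and the limit that a count of 0 allows, 3 UMIs, was 0.0721 to 0.0750 CPM. With 1 library per source there is no replicate spread and no test. Intervals cover counting error only. All 8 stromal markers, among them *COL1A1* and *THY1*, stood at 10 CPM or more in each source, *PTPRC* (CD45) was at 0 UMIs in all 3, and the 5 endothelial markers summed to 0.0994 to 0.192 CPM. Barcodes were shared between libraries, since all 5318 kept PB barcodes were also listed in the AT matrix, nearly all of them below 2500 UMIs there. Of the kept barcodes, 37 were kept in both AT and PB, 42 in both AT and BM and 38 in both BM and PB. Without those few barcodes kept in both libraries of a pair, none of the 30 differences between sources reported here changed its direction. That setting does not address the kept PB barcodes that were listed at low counts in AT. Leaving those out would leave no PB cells, so the effect of that sharing on the PB levels could not be checked. Of the 5403 kept AT cells, 74 had a barcode also listed in PB. For BM and AT, levels were also computed without barcodes listed in another library.

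Of the frizzled receptors, *FZD1* was highest in BM-derived MSCs. *FZD1*, on chromosome 4 of EquCab3.0, stood at 44.5 CPM (42.5 to 46.6) in AT, 131 CPM (127 to 134) in BM and 71.2 CPM (68.6 to 73.8) in PB. The intervals of the 3 sources did not overlap. BM exceeded AT by 2.94-fold (2.78 to 3.10) and PB by 1.84-fold (1.76 to 1.92). At least 1 *FZD1* UMI was detected in 56.0% of BM cells, against 26.5% in AT and 39.7% in PB. After each cell was thinned to 2500 UMIs, which removes differences in depth, those shares were 28.3% in BM, 10.3% in AT and 16.2% in PB. The kept cells held no class known to lack WNT genes, so no share of cells expected from free RNA can be set beside these values.

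*FZD7*, on chromosome 18, was highest in AT and lowest in PB. It stood at 13.0 CPM (11.9 to 14.2) in AT, 8.55 CPM (7.67 to 9.50) in BM and 2.62 CPM (2.15 to 3.16) in PB. AT exceeded PB by 4.97-fold (4.03 to 6.16), and BM exceeded PB by 3.26-fold (2.62 to 4.09). A *FZD7* UMI was found in 8.96% of AT and 1.97% of PB cells, or 3.59% and 0.621% at equal depth. *FZD2*, on chromosome 11, was low in every source, with 3.53 CPM in AT, 2.46 CPM in BM and 3.39 CPM in PB. The ratio of PB to AT was 0.961 with an interval of 0.755 to 1.22, so that no difference between those sources was detectable at this depth. Summed over the 9 frizzled genes in the matrices, the receptor level was 71.5 CPM in AT, 167 CPM in BM and 90.9 CPM in PB.

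*ROR2*, on chromosome 23, encodes a receptor tyrosine kinase that binds WNT5A. Its level was 16.0 CPM (14.7 to 17.2) in AT, 34.3 CPM (32.5 to 36.2) in BM and 30.1 CPM (28.4 to 31.8) in PB. BM exceeded AT by 2.15-fold (1.96 to 2.36) and PB exceeded AT by 1.88-fold (1.71 to 2.08). *ROR2* was detected in 20.8% of cells from BM, against 20.2% for PB and 10.5% for AT, or 8.03%, 7.33% and 3.57% at equal depth. BM and PB differed by 1.14-fold (1.05 to 1.23), and their order turned round when the totals were scaled by TMM factors, with a BM minus PB difference of 0.18 on the log2(CPM + 1) scale before and -0.04 after. The ligand *WNT5A*, on chromosome 16, followed the order AT, PB, BM. It stood at 2.05 CPM (1.63 to 2.55) in AT, 12.1 CPM (11.0 to 13.2) in BM and 4.68 CPM (4.05 to 5.39) in PB, so BM exceeded AT by 5.89-fold (4.65 to 7.54). *WNT5A* was detected in 7.83% of BM cells, against 1.44% in AT and 3.38% in PB, or 2.96%, 0.518% and 0.978% at equal depth.

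**Figure D1:**
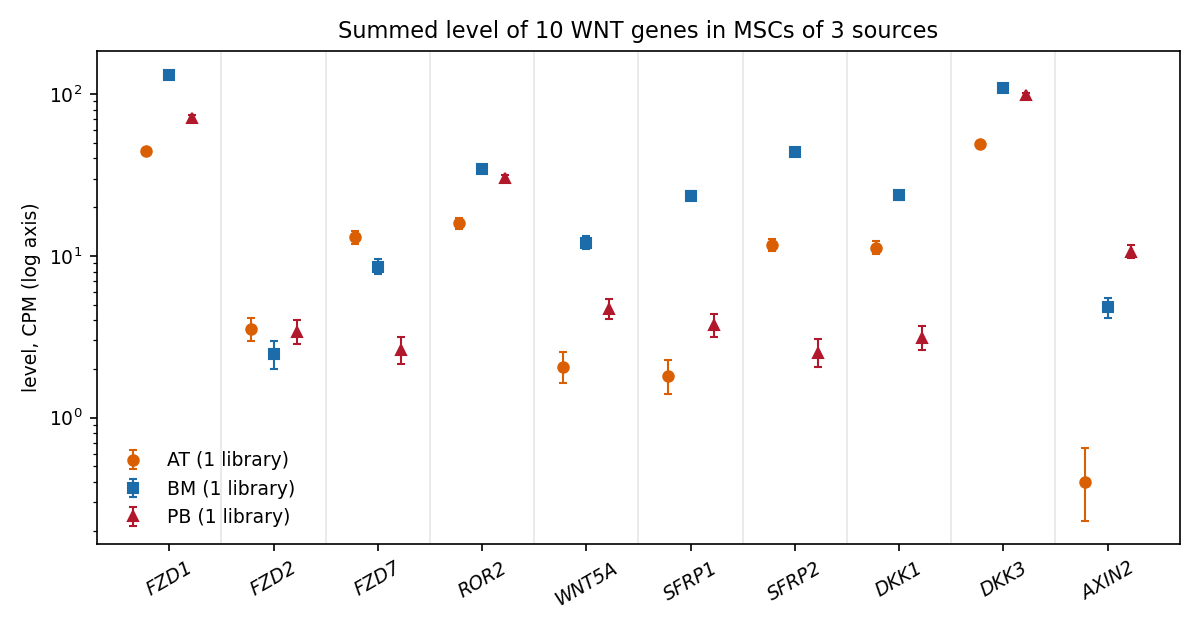
Level of each of the 10 WNT genes by source of the MSCs (AT, BM or PB), in CPM (log axis). Points are the sum over the kept cells of 1 library and bars are exact 95% Poisson intervals. *SFRP1*, *SFRP2* and *DKK1* peak in BM, *FZD7* in AT and *AXIN2* in PB, where it reaches 10.6 CPM against 0.40 CPM in AT. Levels are not compared between genes, since the reads come from transcript ends and depend on each transcript.

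Both secreted frizzled-related genes were highest in BM-derived MSCs. *SFRP1*, on chromosome 27, stood at 1.80 CPM (1.41 to 2.27) in AT, 23.6 CPM (22.1 to 25.1) in BM and 3.72 CPM (3.16 to 4.36) in PB. BM exceeded AT by 13.1-fold (10.3 to 16.9) and PB by 6.33-fold (5.33 to 7.55). *SFRP1* was detected in 13.5% of BM cells, against 1.28% in AT and 2.52% in PB, or 5.88%, 0.407% and 0.884% at equal depth. *SFRP2*, on chromosome 2, stood at 11.7 CPM (10.6 to 12.8) in AT, 43.9 CPM (41.9 to 46.0) in BM and 2.52 CPM (2.06 to 3.05) in PB. The gap between BM and PB was 17.4-fold (14.3 to 21.4), and AT and PB were separated by 4.63-fold (3.74 to 5.78). The order of AT and PB was thus opposite for the 2 genes, *SFRP1* being higher in PB by 2.07-fold (1.55 to 2.77) and *SFRP2* being higher in AT. Together they summed to 13.5 CPM in AT, 67.4 CPM in BM and 6.25 CPM in PB, with *SFRP2* giving 86.6%, 65.1% and 40.4% of the UMIs.

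*SFRP2* was the most unevenly spread of the 10 genes over the cells of each source. In BM, 664 of 5580 cells (11.9%) held its 1766 UMIs, with up to 30 UMIs in 1 cell, and 309 cells held 2 or more. In AT, 214 cells held 467 UMIs, with up to 17 in 1 cell. In PB, 53 cells held all 105 UMIs, with up to 16 in 1 cell. At equal depth, the ratio of variance to mean, which is 1 for counts that scatter by sampling alone, was 2.00 in AT, 2.94 in BM and 4.21 in PB for *SFRP2*. It was 1.37 for *DKK1* in both AT and BM, 1.33 for *SFRP1* in PB, and between 0.994 and 1.12 for *FZD1*, *FZD2*, *FZD7*, *ROR2*, *WNT5A*, *DKK3* and *AXIN2* in every source.

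*DKK1* was also highest in BM and lowest in PB. *DKK1*, on chromosome 1, stood at 11.2 CPM (10.2 to 12.3) in AT, 23.6 CPM (22.2 to 25.2) in BM and 3.12 CPM (2.61 to 3.71) in PB. BM exceeded AT by 2.11-fold (1.88 to 2.37) and PB by 7.57-fold (6.29 to 9.16), and AT exceeded PB by 3.59-fold (2.94 to 4.40). *DKK1* was detected in 10.8% of cells from BM, against 5.48% for AT and 1.96% for PB, or 4.93%, 2.41% and 0.696% at equal depth. *DKK3*, on chromosome 7, belongs to the same family by sequence, but it is not known to bind the LRP co-receptors as DKK1 does. It was low in AT alone, with 48.9 CPM (46.8 to 51.1), against 108 CPM (105 to 111) in BM and 98.4 CPM (95.4 to 101) in PB. The PB to AT ratio was 2.01 (1.91 to 2.12), which fell just short of a 2-fold difference on the log2(CPM + 1) scale. *DKK3* was detected in 50.4% of BM and 51.1% of PB cells but in 27.0% of AT cells, or 24.2%, 21.4% and 11.5% at equal depth. The higher value of BM over PB, 1.10-fold (1.05 to 1.15), turned round with TMM factors, where the difference was -0.10 on the log2(CPM + 1) scale.

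*AXIN2*, on chromosome 11, encodes a scaffold of the beta-catenin destruction complex and is a widely used readout of canonical WNT signalling. It was the only one of the 10 genes with its peak in PB. In AT, 16 UMIs were found in 16 cells, 0.40 CPM (0.229 to 0.650). In BM, 193 UMIs gave 4.80 CPM (4.14 to 5.52), and in PB 441 UMIs gave 10.6 CPM (9.63 to 11.6). The 3 intervals did not overlap. PB exceeded AT by 26.5-fold (16.1 to 46.7) and BM by 2.21-fold (1.86 to 2.63), and BM exceeded AT by 12.0-fold (7.19 to 21.4). *AXIN2* was detected in 7.54% of PB cells, 3.30% of BM cells and 0.296% of AT cells, or 2.86%, 1.27% and 0.148% at equal depth.

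For comparisons across all genes, a gene was compared when it reached 10 CPM in at least 1 of the 2 sources and was counted when the sources differed by 2-fold or more on the log2(CPM + 1) scale. The 10 genes were chosen with earlier results of these data known. Their counts in any pair of sources are therefore descriptions, and the shares of all genes beside them do not make a test. Between BM and AT, 8 of the 10 genes could be compared, and 7 of them were higher in BM and 0 in AT. Of all 7072 genes compared, 10.8% differed, 8.33% being higher in BM and 2.46% in AT. The 7 genes were *FZD1*, *ROR2*, *WNT5A*, *SFRP1*, *SFRP2*, *DKK1* and *DKK3*, of which *WNT5A* and *SFRP1* reached 10 CPM in BM alone. Their differences ran from 1.01 for *DKK1* to 3.13 for *SFRP1*, and the median over the 8 genes was 1.33, against 0.24 over all genes compared. That general shift towards BM depended on the scaling, since with TMM factors, which are meant to centre most genes on no change, BM minus AT differences decreased by up to 0.28 and the median over all genes was -0.05. With TMM factors, 4 of the 7 genes remained at 2-fold, namely *FZD1*, *WNT5A*, *SFRP1* and *SFRP2*, while *ROR2*, *DKK1* and *DKK3* stood at 0.79, 0.75 and 0.85. Of the genes counted between BM and AT, 77.2% were higher in BM with library totals and 56.3% with TMM factors. The share of all genes counted was 10.8% with library totals and 9.62% with TMM factors.

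Between PB and AT, 7 of the 10 genes could be compared and 4 differed, against 9.82% of all genes in either direction. *AXIN2* alone was higher in PB, where 5.80% of all 6720 genes compared were higher, and it reached 10 CPM in PB alone. *FZD7*, *SFRP2* and *DKK1* were higher in AT, where 4.02% of all genes were, and these 3 reached 10 CPM in AT alone. Between BM and PB, 8 of the 10 genes could be compared and 5 differed, against 7.95% of all genes. *WNT5A*, *SFRP1*, *SFRP2* and *DKK1* were higher in BM, where 5.80% of all 7066 genes were, and each of the 4 reached 10 CPM in BM alone. *AXIN2* was higher in PB, where 2.15% of all genes were, with a difference of -1.0 that lay at the threshold, and it reached 10 CPM in PB alone. *WNT5A* stood at 1.20 between BM and PB, and at 0.99 with TMM factors. The split of all genes counted between BM and PB moved from 73.0% higher in BM to 53.1% with TMM factors, and the share counted from 7.95% to 7.32%. *FZD2* reached 10 CPM in no source and entered no comparison.

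**Figure D2:**
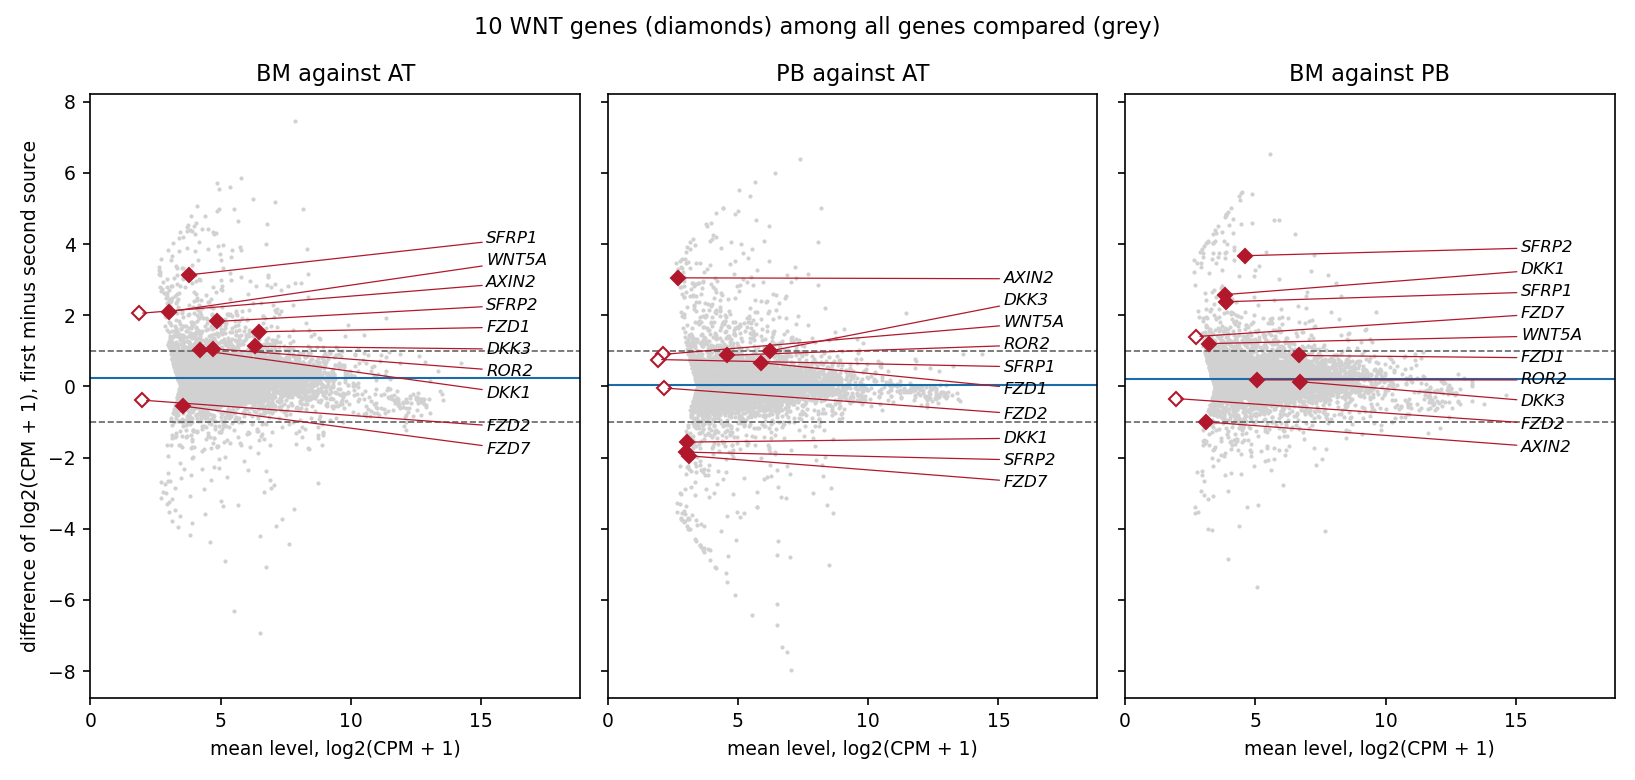
Difference between 2 sources against the mean level of a gene, both on the log2(CPM + 1) scale, for every gene compared (grey) and the 10 WNT genes (diamonds, open where a gene was below 10 CPM in both sources). Dashed lines mark a 2-fold difference and the blue line is the median of all genes compared. *SFRP2* lies at 3.67 between BM and PB and at -1.85 between PB and AT. BM against AT and PB against AT share the AT library, and BM against AT and BM against PB share the BM library.

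In single cells, more of the 10 genes were detected per cell in BM. The median BM cell held UMIs of 2 of the 10 genes, and the median AT and PB cells held 1. At equal depth the medians were 1 in BM and 0 in AT and PB. Cells without a UMI of any of the 10 made up 11.8% of BM, 21.0% of PB and 38.7% of AT, and 40.1%, 56.7% and 68.8% at equal depth. The summed level of the 10 genes was 153 CPM in AT, 392 CPM in BM and 230 CPM in PB. Of the 45 pairs of these genes in BM at equal depth, 40 were found in the same cell at a number whose counting interval held the number given by their shares of cells, for instance *FZD1* with *ROR2* in 126 cells against 127. The other 5 were above it. *FZD1* with *SFRP1* was found in 118 cells against 92.7, *FZD1* with *DKK3* in 423 against 382, *FZD7* with *DKK1* in 12 against 5.62, *WNT5A* with *SFRP2* in 18 against 10.6 and *SFRP1* with *DKK1* in 26 against 16.2. In AT, 1 of 45 pairs was above, *WNT5A* with *DKK3* in 10 cells against 3.21, and 1 below, *SFRP2* with *DKK3* in 6 against 13.4. In PB, 2 were above, *FZD1* with *DKK1* in 12 cells against 6.0 and *SFRP1* with *SFRP2* in 2 against 0.186. No test was made on these numbers. Among 45 pairs per source, counting error alone can place some outside their interval. The share of other gene pairs outside it is not given here, so the named pairs are not set apart from chance. For the 5 BM pairs, the lower bound of the found over the expected number ran from 1.003 (*FZD1* with *DKK3*) to 1.10 (*FZD7* with *DKK1*). It was 1.03 for *FZD1* with *DKK1* in PB, and the other PB pair rests on 2 cells. In AT it was 1.49 for *WNT5A* with *DKK3*.

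The other genes of the pathway were examined in a list of 106 genes, the 10 genes included, of which 99 were present in the matrices. This list was also chosen with earlier results of these data known, so its counts are descriptions as well. Only 37 of those reached 10 CPM in any source, 5 were at 0 UMIs in all 3, and 24 differed by 2-fold or more between at least 1 pair of sources, where 16.9% of all 7211 genes compared did. Of the 34 listed genes compared between BM and AT, 15 were higher in BM and 1 in AT, against 8.33% and 2.46% of all genes. With TMM factors the numbers were 8 and 2, where 9.62% of all genes differed, 375 being higher in BM and 291 in AT. Between PB and AT, 8 of 33 were higher in PB and 6 in AT, against 5.80% and 4.02% of all genes. Between BM and PB, 7 of 36 were higher in BM and 5 in PB, against 5.80% and 2.15%. With TMM factors the numbers were 4 and 5, where 7.32% of all genes differed, 267 being higher in BM and 236 in PB. Many of these genes could be compared only because they reached 10 CPM in the source where they were higher, namely 6 of the 15 higher in BM than AT, 5 of the 8 and 5 of the 6 between PB and AT, and 6 of the 7 and 3 of the 5 between BM and PB. Among ligands, *WNT7B* stood at 13.4 CPM in PB, 5.52 CPM in BM and 0.200 CPM in AT, whereas *WNT10B* differed by less than 2-fold in every pair, with 12.4 CPM in AT, 14.3 CPM in BM and 21.8 CPM in PB. Among receptors, *FZD6* stood at 9.83 CPM in AT, 24.5 CPM in BM and 13.3 CPM in PB, and the receptor kinase *RYK* at 34.3 CPM, 78.8 CPM and 53.0 CPM. *PTK7*, a co-receptor of planar cell polarity, peaked in PB with 84.5 CPM against 31.3 CPM in AT and 41.3 CPM in BM. *LGR4*, a receptor for R-spondins, was lowest in PB with 8.02 CPM against 19.2 CPM in AT and 25.5 CPM in BM. Of the 16 listed antagonists, the 4 that reached 10 CPM were *SFRP1*, *SFRP2*, *DKK1* and *DKK3*.

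Of 7 cytoplasmic genes at 10 CPM or more, *CTNNB1* (beta-catenin) alone differed by 2-fold or more, with 18.7 CPM in AT, 77.5 CPM in BM and 57.3 CPM in PB. Of 8 nuclear genes at 10 CPM or more, 6 differed between at least 1 pair of sources, and *TCF7L2* and *BCL9* did not. *TCF7* and *LEF1*, which bind DNA together with beta-catenin, were highest in PB, where *AXIN2* also peaked. *TCF7* stood at 56.2 CPM in PB, 15.4 CPM in BM and 1.0 CPM in AT, and *LEF1* at 13.8 CPM, 0.770 CPM and 0.350 CPM. *TCF7L1*, which mostly represses target genes, ran the other way, with 42.8 CPM in AT, 17.0 CPM in BM and 18.0 CPM in PB. The corepressor *TLE1* was also highest in AT, at 27.6 CPM against 14.6 CPM and 8.36 CPM, while *TLE3* stood at 4.70 CPM in AT, 11.4 CPM in BM and 10.8 CPM in PB. *TLE4* was high in BM alone, at 20.4 CPM against 7.40 CPM in AT and 8.24 CPM in PB. Of the 5 listed target genes at 10 CPM or more, 3 were highest in PB, namely *AXIN2*, *TCF7* and *LEF1*, whose values are given above. The other 2, *CCND1* and *MYC*, were highest in BM. *CCND1* (cyclin D1) was highest in BM with 338 CPM, against 47.1 CPM in AT and 182 CPM in PB, and *MYC* was lowest in PB with 11.3 CPM. Among targets below 10 CPM, *TNFRSF19* stood at 7.01 CPM in BM and 1.23 CPM in PB, and *NKD2* at 1.99 CPM and 0.288 CPM. *NOTUM* stood at 5.47 CPM in BM and 4.49 CPM in PB, whereas *NKD1* was higher in PB, at 1.18 CPM against 0.944 CPM in BM. The formin *DAAM2* stood at 19.0 CPM in AT, 46.8 CPM in BM and 35.6 CPM in PB.

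**Figure D3:**
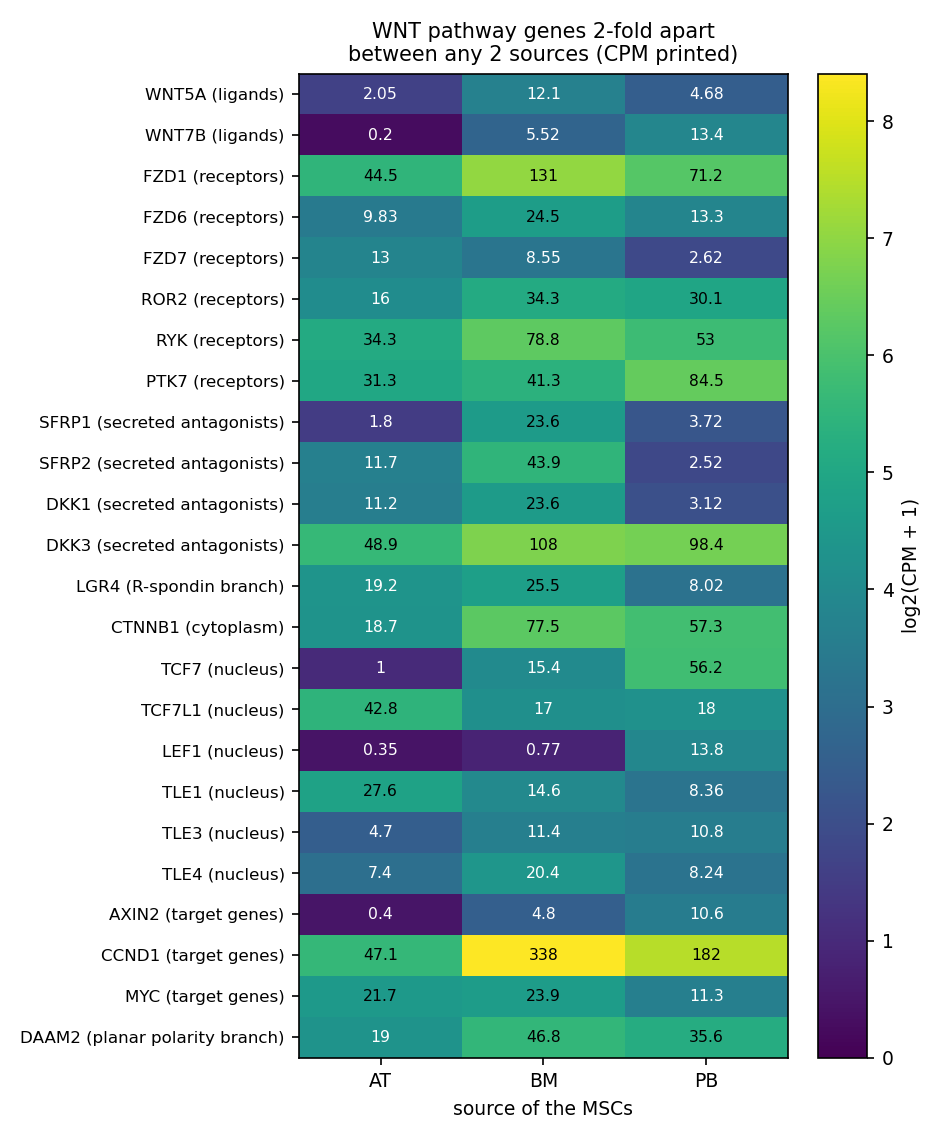
Level of the 24 listed WNT pathway genes that differed by 2-fold or more between at least 1 pair of sources, by role (rows) and source (columns). The colour is log2(CPM + 1) and the CPM is printed in each field. *TCF7*, *LEF1*, *WNT7B* and *AXIN2* are lowest in AT and highest in PB, and the secreted antagonists *SFRP1*, *SFRP2* and *DKK1* are highest in BM.

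Markers of bone-forming cells also differed between sources. The 5 osteoblast markers in the matrices summed to 4.60 CPM in AT, 173 CPM in BM and 380 CPM in PB, the same order as *AXIN2*. *ALPL*, at 96.0 CPM in BM and 326 CPM in PB, made up most of the sum in both. *ALPL*, *RUNX2* and *SP7* each followed that order too. *IBSP* and *SPP1* were higher in BM than in PB, with *IBSP* at 0 UMIs in AT, 32.3 CPM in BM and 0.673 CPM in PB. The 7 smooth muscle or pericyte markers summed to 1461 CPM, 1126 CPM and 723 CPM. The 5 adipocyte markers stayed at or below 7.43 CPM in sum, the 8 haematopoietic markers at 12.5 CPM and the 4 chondrocyte markers at 13.0 CPM. The part of these markers in the differences between sources was not tested, and 1 library per source means that the source, the culture and the library cannot be told apart.

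Within each source, cells were clustered without the WNT pathway genes among the variable genes, which gave 8 clusters in AT, 8 in BM and 10 in PB. Clusters are described by their leading genes, and no test was made between them. Over clusters of at least 100 cells, 3 of 6 members at 10 CPM or more in AT had a 2-fold range between the highest and lowest cluster, against 24.0% of all such genes. In BM it was 6 of 7, against 34.5%, and in PB 2 of 4, against 42.1%. In BM, *ROR2* was the member without a 2-fold range, at 27.4 to 43.6 CPM, and in PB *FZD1* and *DKK3* had none.

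In AT, *DKK1* and *SFRP2* were highest in the same cluster, also at resolution 0.8 and with log normalization, but at resolution 0.4 they were highest in different clusters, at 18.1 CPM and 16.8 CPM. Cluster 2 of AT (769 cells), led by *SCARA5* and *CTSK*, held *DKK1* at 32.0 CPM and *SFRP2* at 32.0 CPM. The next highest for both was cluster 6, led by *ID1* and *ID3*, with 24.2 CPM of *DKK1* and 20.2 CPM of *SFRP2*. Cluster 0 (1109 cells), led by the contractile genes *DES*, *ACTG2* and *ACTA2*, showed the opposite, with 0.686 CPM of *DKK1* and 4.57 CPM of *SFRP2*. *DKK3* was at its highest there, at 75.3 CPM, and at its lowest in cluster 2, at 22.0 CPM. *WNT5A* was also at its AT maximum in cluster 0, at 4.23 CPM, against 0.351 CPM in cluster 2.

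In BM, *SFRP1* was highest in clusters 1 and 2, and *SFRP2* was high in both of these but highest in the small cluster 7. Cluster 1 (1108 cells), led by *CCL2*, *CXCL12* and *VCAN*, held 70.8 CPM of *SFRP2* and 46.1 CPM of *SFRP1*. Cluster 2 (879 cells), led by *EDNRA* and *HEY2*, held 63.1 CPM of *SFRP2*, 47.8 CPM of *SFRP1* and the highest *FZD1* level of the clusters, 203 CPM. Cluster 0 (1369 cells), whose leading genes included the osteoblast markers *SP7* and *ALPL*, separated the pair, with 39.2 CPM of *SFRP2* but 5.92 CPM of *SFRP1*, and it held the lowest *FZD7* level in BM, 3.24 CPM. Cluster 7 (99 cells), led by *LAMP2*, *PCOLCE* and *PIGK*, held the highest *SFRP2* level of BM, 116 CPM, and the highest *DKK1* level, 61.0 CPM (45.8 to 79.6), with *SFRP1* at 13.6 CPM. With 3 other clustering settings a cluster of 102 or 103 cells was highest for both, with 112 to 114 CPM of *SFRP2* and 55.5 to 59.8 CPM of *DKK1*. *DKK1* was next highest in cluster 6 (374 cells), led by *CDKN3* and *CCNB2*, at 42.9 CPM, and in cluster 1, at 40.0 CPM. *WNT5A* peaked in cluster 4 (641 cells), led by *TOP2A* and *CENPF*, at 21.1 CPM, and *DKK3* in cluster 5 (459 cells) at 158 CPM.

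Cluster 3 of BM (651 cells) stood apart for most of the 10 genes. It was led by *CALCA*, *EMB*, *IGFBP5* and *HMX2*, and 90.2% of its cells were called S or G2M. *SFRP1* was at 3.42 CPM, *SFRP2* at 3.74 CPM and *WNT5A* at 2.93 CPM in it, each the lowest of the BM clusters. *FZD1* (70.1 CPM) and *DKK3* (57.3 CPM) were also at their lowest, whereas *AXIN2* was at its highest, 7.81 CPM. The summed level of the stromal markers was 5657 CPM in cluster 3, against 7533 to 11452 CPM in the other BM clusters. The osteoblast markers summed to 12.5 CPM in cluster 3, against 53.1 to 449 CPM in the others. In this cluster of BM, *AXIN2* was thus high where those markers were low. Marker sums for some PB clusters are given below.

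In PB, *SFRP1* and *SFRP2* were concentrated in a small cluster. Cluster 8 (144 cells, 2.71% of PB cells), led by *NDUFA4L2*, *CEP128*, *SFRP1*, *NSG1* and *MGP*, held *SFRP1* at 44.3 CPM (32.3 to 59.3) and *SFRP2* at 48.2 CPM. It contributed 29.0% of the *SFRP1* UMIs and 46.7% of the *SFRP2* UMIs of PB, and with log normalization the cluster highest for both (207 cells) held 35.5% and 73.3%. *AXIN2* was at its highest there as well, 20.7 CPM, and *ROR2* at its lowest, 9.84 CPM. *SFRP1* was at 42.2 CPM in cluster 9, which had 32 cells only and was led by *CXCL11* and *CXCL10*, and *SFRP2* was at 0 there. With so few cells both values are imprecise, and the 0 does not show that *SFRP2* was lower there than in PB as a whole. When cluster 3 of BM and cluster 8 of PB were left out, the BM minus PB difference was 2.93 in place of 2.38 for *SFRP1* and 4.45 in place of 3.67 for *SFRP2*. *AXIN2* varied in PB from 4.52 CPM in cluster 6 (397 cells), led by *UHRF1* and *CDK1*, to 17.3 CPM in cluster 4 (419 cells), led by *IFITM5* and *TIMP3*, and 20.7 CPM in cluster 8. The osteoblast markers summed to 129 CPM in cluster 6, 616 CPM in cluster 4 and 684 CPM in cluster 8. They summed to 643 CPM in cluster 5 of PB, whose *AXIN2* level is not given here. Whether these markers and *AXIN2* vary together across clusters was not tested.

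**Figure D4:**
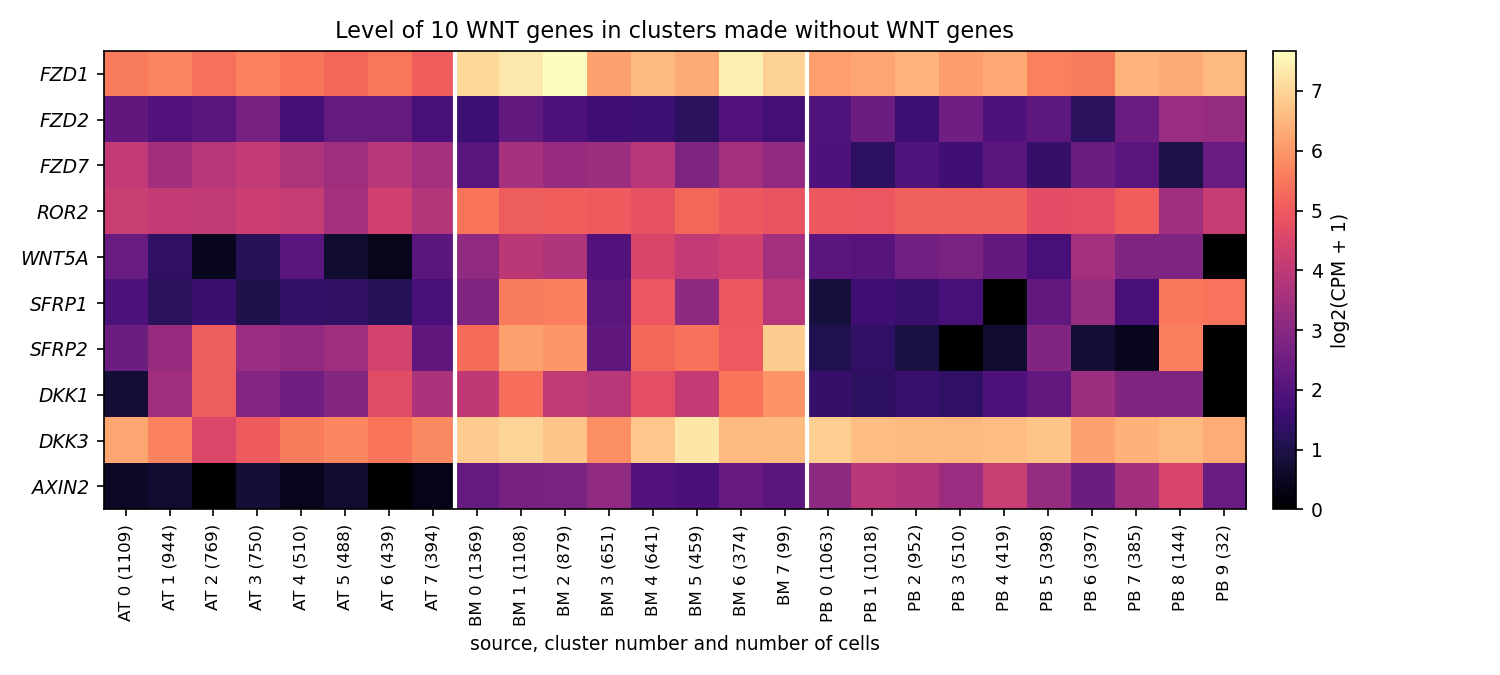
Level of the 10 WNT genes (rows) in the 26 clusters of the 3 sources (columns, with the number of cells), as log2(CPM + 1) of UMIs summed over the cells of a cluster. In BM, *SFRP1* is at 29.2 CPM or more in clusters 1, 2, 4 and 6, and *SFRP2* at 30.9 CPM or more in every cluster except cluster 3. In PB, both are at 44.3 CPM or more in cluster 8, while *SFRP1* is also at 42.2 CPM in cluster 9, which has 32 cells only.

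Across the 24 clusters of at least 100 cells, *FZD1* and *DKK3* were the members at a level of 50 CPM or more, and the genes with the most similar pattern were sought for them among 2804 genes. *FZD1* was most like *CRIPT* (Pearson's r = 0.911 across clusters), the unnamed gene ENSECAG00000039645 (0.907) and *PNRC1* (0.902), and *DKK3* was most like *PLOD2* (0.905), *MARCKSL1* (0.894) and *PON2* (0.892). The clusters of a source share a library, and with the mean of each source removed the values were 0.655, 0.62 and 0.801 for *FZD1* with these 3 genes, and 0.760 for *DKK3* with *PLOD2*. *FZD1* and *DKK3* themselves correlated at 0.647, and at 0.113 within sources. These values are descriptions of clusters that are not independent.

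Cell cycle phases were called from each cell's transcripts, and *SFRP2* in BM was the one gene at 10 CPM or more in a source that differed by 2-fold or more between G2M and G1. *SFRP2* in BM stood at 55.9 CPM in cells called G1, 28.6 CPM in S and 17.2 CPM in G2M. The ratio of G2M to G1 was 0.307 (0.252 to 0.371), a difference of -1.65 on the log2(CPM + 1) scale, and 3.08% of all genes compared in BM were lower by 2-fold or more in G2M. Of the 7 genes at 10 CPM or more in BM, *SFRP2* alone was in that group, and 0 were higher by 2-fold in G2M, where 8.20% of all genes were. Without cluster 3 of BM the ratio was 0.455 (0.369 to 0.556). *SFRP1* in BM stood at 26.1 CPM in G1 and 16.2 CPM in G2M, a ratio of 0.619 (0.502 to 0.758), but without cluster 3 the ratio was 0.979 (0.787 to 1.21). *FZD1* and *DKK3* in BM had ratios of 0.680 and 0.636, and 0.830 and 0.753 without cluster 3.

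In PB, the direction was the other way for *SFRP1*, which stood at 2.57 CPM in G1 and 7.07 CPM in G2M, a ratio of 2.75 (1.87 to 4.02). Neither value reached 10 CPM. The ratio was 4.54 (2.84 to 7.31) without cluster 8. *SFRP2* in PB stood at 1.78 CPM in G1 and 3.81 CPM in G2M, and *AXIN2* in PB at 11.5 CPM and 8.15 CPM, a ratio of 0.709 (0.528 to 0.939). Of the 6 genes at 10 CPM or more in AT, 0 differed by 2-fold between G2M and G1, where 4.12% of all genes were higher and 0.0912% lower in G2M. Of the 4 in PB, 0 did, where 3.84% were higher and 0.105% lower. In AT, *SFRP2* had a ratio of 0.707 (0.527 to 0.933) and *FZD1* of 0.828 (0.722 to 0.947), and the intervals of *FZD2*, *FZD7*, *ROR2*, *WNT5A*, *SFRP1*, *DKK1*, *DKK3* and *AXIN2* all included 1. Phase calls also read free RNA, whose part in them was not tested. The main differences between sources were also present in G1 cells alone, where the BM minus AT difference was 3.37 for *SFRP1*, 2.08 for *SFRP2*, 2.19 for *WNT5A* and 1.66 for *FZD1*, and the PB minus AT difference was 3.23 for *AXIN2*.

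**Figure D5:**
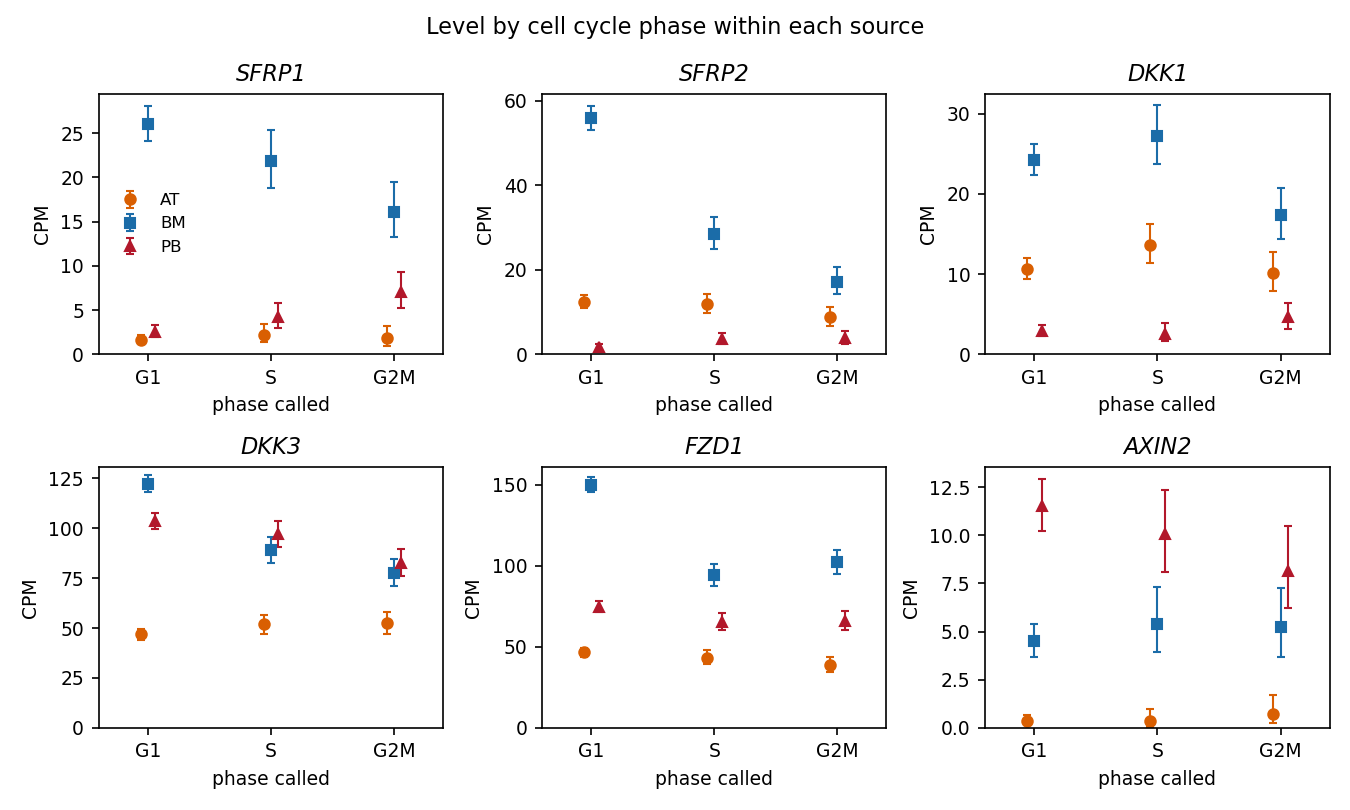
Level of 6 of the WNT genes by the cell cycle phase called (x axis) within AT (circles), BM (squares) and PB (triangles), as CPM of UMIs summed over the cells of a phase, with exact 95% Poisson intervals. *SFRP2* is at 55.9 CPM in G1 and 17.2 CPM in G2M in BM, and *SFRP1* is at 2.57 CPM and 7.07 CPM in PB.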

How the data were processed

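Libraries of 1 mare's AT-, BM- and PB-derived MSCs were made with the 10x Genomics 3' kit, version 2. The authors mapped the reads to EquCab3.0 with Cell Ranger and counted UMIs per gene and barcode with ESAT, and the deposited values are raw counts. Counts come from transcript ends, so overlapping or poorly annotated ends can lower a gene. Genes were matched by symbol, and all 10 members were found. From the deposited counts, UMIs of kept cells were summed with Python 3.11.15, SciPy 1.17.1 and pandas 2.3.3. Ratios carry exact 95% intervals from the binomial share of the 2 sums, and shares of cells carry Clopper-Pearson intervals. Differences use a pseudocount of 1 CPM. Phases and clusters came from Seurat 5.3.0 with sctransform 0.4.2 (3000 variable genes without the WNT list, resolution 0.6), otherwise following the main settings of the study. Cluster numbers are those made here and were not matched to the cluster numbers of the study. The study's own doublet calls were not used here. Leaving out the top 5% of Scrublet scores (Scanpy 1.11.5) was an alternative, as were TMM factors (edgeR 4.0.16), thinning and other limits on UMIs, and the closing section gives their effect. The call rule was run on simulated counts with planted changes larger than 2-fold in BM. Between BM and AT it called 100 of 100 raised genes, 99 of 100 lowered genes and 0 of 6347 unchanged genes. The simulated counts scattered by sampling alone and had no general shift between sources. The run therefore cannot show how the rule fares where the data have either. The members, the pathway list and the markers were chosen with earlier results of these data known. All 10 members and the listed genes past 2-fold were named, with *WNT10B* named after its values were seen.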

Additional observations from a re-analysis of the deposited data

Results flagged for a closer look

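The ratio of G2M to G1 cells pointed in opposite directions in different sources for 3 antagonists, each with a counting interval that left out 1. The differences between sources were not tested. For *SFRP1* the ratio was 2.75 in PB and 0.619 in BM. For *SFRP2* it was 2.14 (1.29 to 3.51) in PB, 0.707 in AT and 0.307 in BM. For *DKK1* it was 1.60 (1.03 to 2.44) in PB and 0.715 (0.582 to 0.871) in BM. Without cluster 3 of BM, the BM ratios were 0.979 for *SFRP1*, 0.455 for *SFRP2* and 0.867 (0.682 to 1.09) for *DKK1*, so that the intervals of *SFRP1* (0.787 to 1.21) and *DKK1* held 1. The intervals are too narrow for *SFRP2*, which scatters over cells by more than sampling and had 105 UMIs in all in PB, and to a lesser degree for *DKK1* in BM and *SFRP1* in PB, with ratios of variance to mean of 1.37 and 1.33. Without cluster 8 of PB the PB ratios were 4.54, 2.29 and 1.59 in the same order.

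Barcodes below 2500 UMIs, which entered no comparison, held some of the genes at a higher level than the kept cells of the same library, with intervals that did not overlap. In the 6155 such barcodes of AT, the level was 60.8 CPM for *FZD1*, 27.7 CPM for *ROR2*, 4.34 CPM for *WNT5A*, 98.9 CPM for *DKK3* and 9.59 CPM for *AXIN2*. Other genes were lower there than in the kept AT cells, *FZD7* at 3.98 CPM against 13.0 CPM, *SFRP2* at 3.98 CPM against 11.7 CPM and *DKK1* at 4.34 CPM against 11.2 CPM. Of these AT barcodes, 5711 were also listed in the PB matrix, and in those *AXIN2* stood at 10.6 CPM (52 UMIs) and *DKK3* at 105 CPM, while in the 439 found in neither PB nor BM, *AXIN2* had 1 UMI and *DKK3* stood at 51.2 CPM (34.8 to 72.7). *ROR2* stood at 27.7 CPM in the former and 28.1 CPM (16.4 to 45.0) in the latter, and *FZD1* at 61.6 CPM and 54.5 CPM (37.5 to 76.5). In the kept cells of PB, *AXIN2* stood at 10.6 CPM and *DKK3* at 98.4 CPM. *FZD1* stood at 198 CPM in the 526 such barcodes of BM and at 104 CPM in the 554 of PB.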

How the results depend on the processing

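Over the alternatives, 370 values were computed for the 30 differences of the members between sources, and 5 changed sign, all in differences below 2-fold, namely those of *FZD2* between PB and AT and of *ROR2* and *DKK3* between BM and PB. No difference of 2-fold or more turned round. With a pseudocount of 10 CPM, the members at 2-fold or more numbered 4 instead of 7 between BM and AT, 0 instead of 4 between PB and AT and 3 instead of 5 between BM and PB, and the WNT pathway genes numbered 8 instead of 16, 7 instead of 14 and 5 instead of 12. With TMM factors, the members between BM and AT numbered 4 and the pathway genes 10, where 9.62% of all genes were counted. With no CPM minimum, the pathway genes numbered 26 between BM and AT and 22 between PB and AT. A larger pseudocount shrinks the differences of all genes, and a removed minimum changes which genes are compared. The shares of all genes under those settings are not given here, so these counts do not set the listed genes apart. The other counts stayed within 1.5 times. Including AT barcodes from 500 UMIs upward lowered the PB minus AT difference of *AXIN2* from 3.05 to 2.25. Of all 6155 AT barcodes below the main UMI limit, 5711 were also listed in PB, and these held 52 of the 53 *AXIN2* UMIs. Leaving out barcodes listed in any other library left no PB cells, so that setting gave values for BM and AT alone. The settings without barcodes kept in another library and without cluster 3 of BM and cluster 8 of PB were chosen after seeing the data. Of the values recomputed, 60 of the 370 differences, 74 of 170 shares of cells, 15 of 80 phase ratios and 10 of 90 ranges between clusters moved by more than their counting interval. The shares include those of cells thinned to 2500 UMIs and of cells with at least 2 UMIs of a gene. Both settings can only lower a share, so that number does not measure how stable the shares are. Counts were lowest for *AXIN2*, *SFRP1* and *WNT5A* in AT (16 to 82 UMIs), *FZD2* everywhere (99 to 141) and *SFRP2*, *FZD7* and *DKK1* in PB (105 to 130). No paired analysis was possible because each source had 1 sample and no test was made.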
